A study of Gallus gallus with 12 samples.

Results

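*MX1*, *RSAD2* and *OASL* are antiviral genes that interferon switches on, and their RNA was followed here through 12 libraries of chicken embryonic fibroblasts in which *Myoz3* was knocked down or overexpressed. In this table of 26102 gene IDs they are ENSGALG00000016142 (*MX1*), ENSGALG00000016400 (*RSAD2*) and ENSGALG00000013723 (*OASL*). The choice of genes held 5 IDs, of which 3 are described, and *IFIT5* and *IFIH1* were not analysed here. All 5 were picked with their levels in these libraries known. It is not recorded which contrast was used, so their levels and fold changes are a description, and the test values given below show only where the genes stand among all genes.

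The CEFs (chicken embryonic fibroblasts, cells of connective tissue in primary culture) came from 9-day-old embryos labelled broiler and specific-pathogen-free, and every group was transfected with a lipid reagent. NC received a non-specific control siRNA and Inter a *Myoz3* siRNA, named inter in the labels. Control received an empty vector, named con in the labels, and Over the same vector carrying the *Myoz3* coding sequence behind a CMV promoter, named o_exp in the labels. The vector has a lentiviral backbone and also encodes a green fluorescent protein, and the siRNA was chosen from several candidates after a screen. Each group has 3 libraries, 1 per transfected sample, called biological replicates in the study's methods. Nothing says whether they came from separate embryos, so the spread between them may be technical. No untransfected cells are among the libraries.

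A vertebrate cell that detects foreign nucleic acid, such as viral double-stranded RNA or DNA in its cytosol, secretes type I interferon. Interferon binds a receptor on the same and neighbouring cells, and the JAK kinases and STAT factors it activates carry the signal to the promoters of many interferon-stimulated genes. Those genes are kept low in resting fibroblasts and rise together within hours. Mx proteins are large GTPases of the dynamin family that block steps of virus replication in mammals. RSAD2, also called viperin, is a radical SAM enzyme that turns a nucleotide into a chain terminator of viral polymerases in mammals. OASL belongs to the oligoadenylate synthetase family, whose active members sense double-stranded RNA and make a messenger that switches on RNase L.

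Reads counted in genes summed to between 13291600 and 19804175 in the siRNA libraries and to between 18300623 and 23576681 in the vector libraries. The 10 genes with most reads held 10.0% to 14.2% of each total. In the study's plot of similarity between libraries, drawn from the same sequencing, Inter 3 lay far from the other Inter libraries and near NC. By quantitative PCR its *Myoz3* was also close to NC levels. The study set a library aside for these reasons, although its text names the third NC library as the one left out. The knockdown was therefore fitted on Inter 1 and 2 against NC 1 to 3, and the values of Inter 3 are printed beside them. The file gives IDs without symbols, and 0 of its IDs could be matched to the gene table used here. The level of *Myoz3* itself and markers of fibroblasts or other cell types were not analysed here.

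All 3 genes were far lower in every siRNA library than in every vector library. Levels are given as CPM, the read count of a gene scaled to 1000000 reads after correction of the library size by edgeR's TMM factors. A lower CPM can mean fewer cells that make the RNA or less RNA per cell, and bulk samples cannot tell these apart. The values are in the plot of levels in the 12 libraries.

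**Figure D1:**
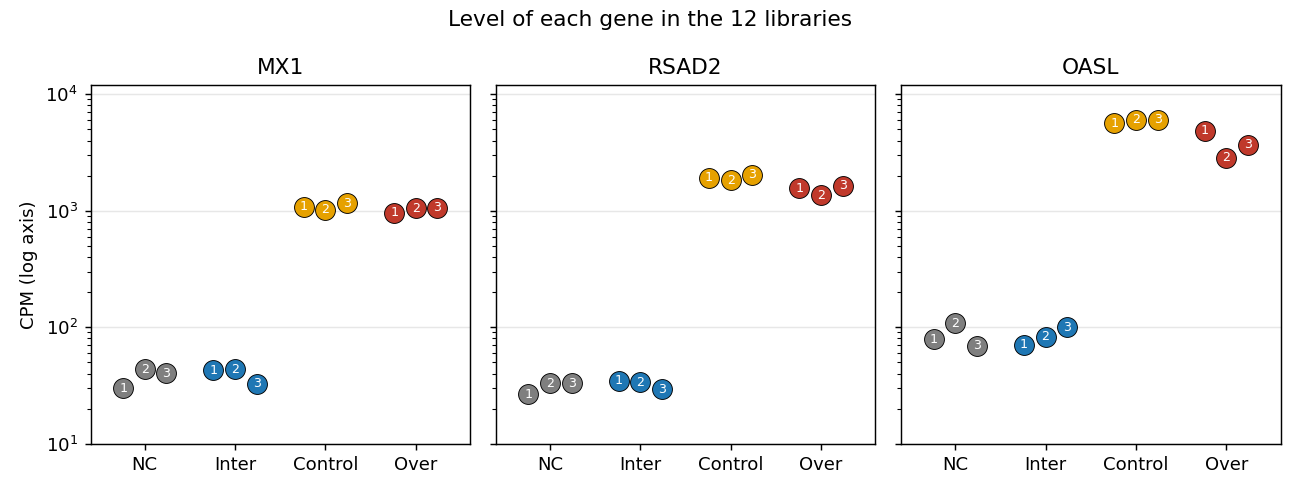
Level of *MX1*, *RSAD2* and *OASL* in each library, in CPM on a log axis, with 1 point per library numbered by replicate and coloured by group. The 6 siRNA libraries (NC and Inter) lay between 26.6 and 109 CPM, and the 6 vector libraries (Control and Over) between 957 and 6032 CPM.

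*MX1*, the dynamin-like GTPase, had 29.9, 43.4 and 40.3 CPM in NC 1 to 3, from 411, 731 and 674 counts. In Inter 1 to 3 it had 42.8, 43.4 and 32.7 CPM, from 666, 937 and 532 counts. The siRNA groups overlapped, and NC 1 and Inter 3 were the lowest libraries. In Control 1 to 3 it had 1080.0, 1016 and 1156 CPM, from 23102, 22291 and 23011 counts. In Over 1 to 3 it had 957, 1051 and 1059 CPM, from 16239, 20119 and 18629 counts. The vector groups overlapped too, and the lowest vector library stood 22.0-fold above the highest siRNA library.

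*RSAD2*, the viperin gene, had 26.6, 32.9 and 33.0 CPM in NC 1 to 3, from 366, 554 and 551 counts. In Inter 1 to 3 it had 34.7, 33.8 and 29.2 CPM, from 540, 729 and 475 counts. As for *MX1*, NC 1 and Inter 3 were the lowest of the siRNA libraries. In Control 1 to 3 it had 1908, 1828 and 2028 CPM, from 40811, 40122 and 40367 counts. In Over 1 to 3 it had 1554, 1360.5 and 1636 CPM, from 26367, 26054 and 28773 counts. Here every Over library lay below every Control library, and the lowest vector library stood 39.2-fold above the highest siRNA library.

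*OASL*, of the oligoadenylate synthetase family, had 78.6, 109 and 69.3 CPM in NC 1 to 3, from 1080, 1828 and 1158 counts. In Inter 1 to 3 it had 70.6, 82.7 and 99.9 CPM, from 1098, 1785 and 1626 counts. NC 2 and Inter 3 were the highest siRNA libraries, so Inter 3 was high for *OASL* where it was low for the other two genes. In Control 1 to 3 it had 5599.9, 6032 and 6017 CPM, from 119789, 132356 and 119768 counts. In Over 1 to 3 it had 4875, 2851 and 3696 CPM, from 82738, 54598 and 64999 counts. Every Over library lay below every Control library, Over 1 came closest to them, and the lowest vector library stood 26.3-fold above the highest siRNA library.

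The siRNA groups could be set against the vector groups in pairs that share no library, NC against Control and Inter against Over. The study does not make this comparison. The siRNA and vector libraries differ in the kind and dose of nucleic acid, in depth and possibly in handling, which cannot be told apart. The mean level of *MX1* was 37.9 ± 7.06 CPM (SD, n = 3) in NC and 1084 ± 70.2 CPM (SD, n = 3) in Control, a ratio of 28.6. *RSAD2* had 30.8 ± 3.63 CPM (SD, n = 3) in NC and 1921 ± 101 CPM (SD, n = 3) in Control, a ratio of 62.3. *OASL* had 85.5 ± 20.5 CPM (SD, n = 3) in NC and 5883 ± 245 CPM (SD, n = 3) in Control, a ratio of 68.8. In each gene the gap between the groups was many times the spread between replicates.

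The fitted log2 fold changes of NC against Control were -4.82 for *MX1* (SE 0.13), -5.95 for *RSAD2* (SE 0.11) and -6.09 for *OASL* (SE 0.17). The log2 fold changes of Inter 1 and 2 against Over were -4.54 (SE 0.07), -5.44 (SE 0.11) and -5.61 (SE 0.25) in the same order. In these fits the order of the 3 genes was the same in both pairs, and *MX1* differed least. The order of *RSAD2* and *OASL* was not stable. With Inter 3 included, Inter against Over gave -5.49 for *RSAD2* and -5.44 for *OASL*. Without NC 3, NC against Control gave -6.02 for *RSAD2* and -5.99 for *OASL*. When each library was scaled by its total count alone, the ratio of Control to NC was 25.6 for *MX1*, 55.8 for *RSAD2* and 61.6 for *OASL*. The ratio of Over to Inter 1 to 3 was then 22.7 for *MX1*, 41.0 for *RSAD2* and 39.8 for *OASL*.

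Differences between these groups were widespread. Of 14371 genes tested between NC and Control, the quasi-likelihood test of edgeR called 67.3% at a threshold of 0.05 after Benjamini-Hochberg adjustment, and 35.4% were lower in NC. All libraries of NC lay below all of Control in 37.6% of the genes tested. All 3 genes were among the latter, from which nothing is read because they were chosen for their levels. The split was 4590 genes higher and 5085 lower in NC, against 5989 and 4342 with libraries scaled by total counts, which moved the median log2 fold change of all genes from 0.01 to 0.16. Between Inter and Over 63.7% of 14757 genes were called, 34% lower in Inter, and 41% had every Inter library of the fit below every Over library.

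Large falls were less common among all genes than falls of any size. Of the genes tested, 2.87% had a log2 fold change below -4 between NC and Control, and 3.08% between Inter and Over. All 3 genes lay in that range in both. Below -5 the shares were 1.68% and 1.65%, and *RSAD2* and *OASL* but not *MX1* lay there in both. Nothing is read from this either, because the genes were chosen with their levels known. Counted from the lowest log2 fold change of NC against Control, *OASL*, *RSAD2* and *MX1* were 115th, 126th and 264th of the 14371 genes.

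**Figure D2:**
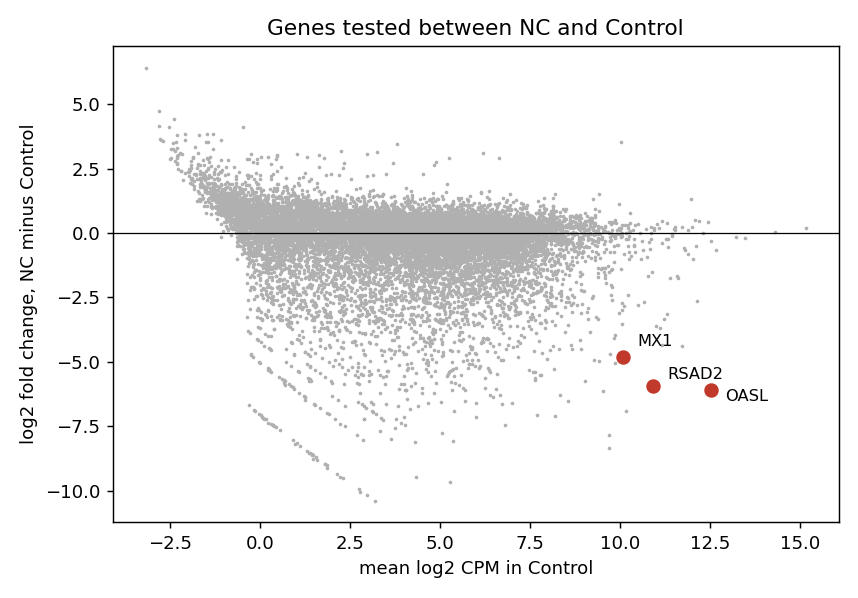
Each of the 14371 genes tested between NC and Control, with its mean log2 CPM in Control on the horizontal axis and its log2 fold change (NC minus Control) on the vertical axis. *MX1* (-4.82), *RSAD2* (-5.95) and *OASL* (-6.09), the large points, were chosen with these levels known and lie toward the lower right. Other genes reached log2 fold changes as low as -10.4.

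The 3 genes together took between 0.0140% and 0.0195% of the counts of a siRNA library. They took between 0.806% and 0.864% in Control and between 0.510% and 0.685% in Over. *OASL* alone took 0.551% ± 0.0216 (SD, n = 3) of the counts in Control and 0.360% ± 0.0883 (SD, n = 3) in Over. In NC it took 0.00894% ± 0.00221 (SD, n = 3).

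Across the 3 replicates of each group, levels varied by more than counting error. The coefficient of variation (CV, the SD as a percent of the mean) of *MX1* was 18.6% in NC and 15.2% in Inter, while the counting error of single NC libraries was between 3.70% and 4.93%. That of *RSAD2* was 11.8% in NC and 9.08% in Inter, and that of *OASL* 24.0% in NC and 17.5% in Inter. In Control the CV was 6.48% for *MX1*, 5.23% for *RSAD2* and 4.17% for *OASL*. In Over it was 5.56% for *MX1*, 9.32% for *RSAD2* and 26.7% for *OASL*, where the counting error of a library was at most 0.428%. *OASL* was thus evenly high in Control and uneven in Over.

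The knockdown asks whether *Myoz3* siRNA changed these genes relative to the non-specific siRNA. The quasi-likelihood test called none of the 3, and 0.225% of 14194 genes in all. *MX1* had 43.1 ± 0.424 CPM (SD, n = 2) in Inter 1 and 2 against 37.9 in NC, a log2 fold change of 0.20 (SE 0.13, adjusted p = 0.506 from the quasi-likelihood test). The 95% interval of its fold change ran from 0.947 to 1.40. *RSAD2* had 34.2 ± 0.663 CPM (SD, n = 2) against 30.8, a log2 fold change of 0.17 (SE 0.10, adjusted p = 0.489 from the same test), with a fold change between 0.960 and 1.32. *OASL* had 76.6 ± 8.57 CPM (SD, n = 2) against 85.5, a log2 fold change of -0.13 (SE 0.15, adjusted p = 0.743 from the same test), with a fold change between 0.725 and 1.15. The CV of Inter 1 and 2 was 0.983% for *MX1* and 1.94% for *RSAD2*. Both lay below the counting error of these libraries (at least 3.27% and 3.70%), so these SDs understate the error. For *OASL* the CV was 11.2%, above a counting error of at most 3.02%.

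In this fit the intervals of all 3 genes included an unchanged level and did not reach 1.5-fold in either direction. They rest on few libraries and on genes chosen with their levels known, so a change of that size is not excluded. The study states that its siRNA did not remove *Myoz3* completely. These intervals therefore describe a partial knockdown in Inter 1 and 2, not the loss of *Myoz3*. *RSAD2* was the only one of the 3 whose Inter 1 and 2 values lay above all NC values, as did 12.2% of all genes tested. With Inter 3 included, the log2 fold changes were 0.06 for *MX1*, 0.08 for *RSAD2* and -0.02 for *OASL*, with adjusted p-values of the quasi-likelihood test from 0.965 to 0.993. Single NC libraries also moved them: *MX1* had a log2 fold change of 0.06 without NC 1, and *OASL* had 0.083 without NC 2.

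The overexpression asks whether *Myoz3* changed these genes relative to the empty vector. The quasi-likelihood test called none of the 3, and it called 0.0283% of 14128 genes. The likelihood ratio test, which the study's methods name, called *RSAD2* and *OASL* lower in Over, and it called 2.93% of the genes tested in all and 2.12% as lower in Over. Every Over library lay below every Control library in *RSAD2* and *OASL* (2 of the 3 genes), as held for 10.6% of all genes tested. Both groups are in the lower row of the plot of the 2 comparisons.

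**Figure D3:**
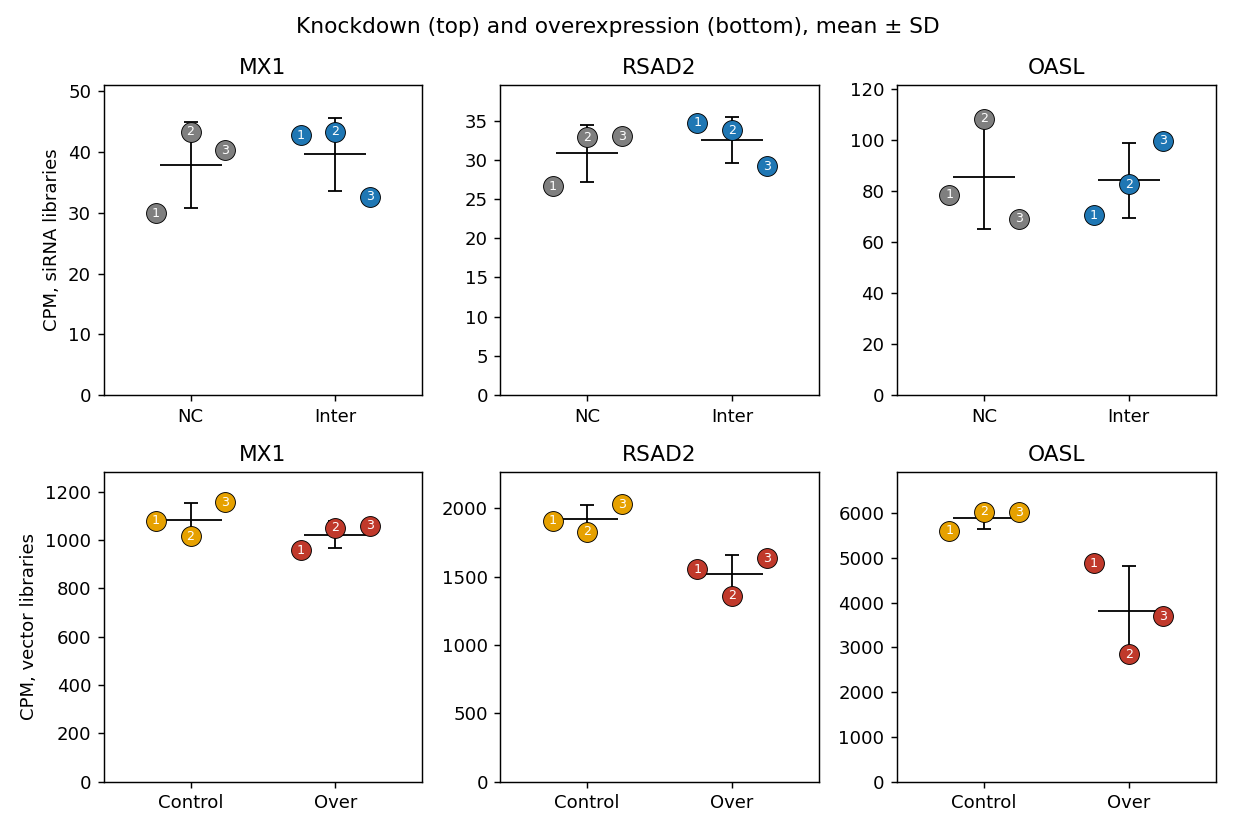
CPM of *MX1*, *RSAD2* and *OASL* in NC and Inter (upper row) and in Control and Over (lower row), on linear axes that start at 0. Points are libraries numbered by replicate and bars are the mean ± SD of 3 libraries: the siRNA groups overlap in every gene, the vector groups overlap in *MX1*, and in *OASL* Over (3807 ± 1017) lies below Control (5883 ± 245).

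*OASL* had 3807 ± 1017 CPM (SD, n = 3) in Over against 5883 ± 245 in Control, a log2 fold change of -0.62 (SE 0.15). In edgeR the quasi-likelihood test gave an adjusted p of 0.116 and the likelihood ratio test 0.00804 (Benjamini-Hochberg over all genes tested). The 95% interval of the fold change ran from 0.518 to 0.814. Of all genes tested, 2.11% had a lower log2 fold change.

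*RSAD2* had 1517 ± 141 CPM (SD, n = 3) in Over against 1921 ± 101 in Control, a log2 fold change of -0.34 (SE 0.08). The quasi-likelihood test gave it an adjusted p of 0.122 and the likelihood ratio test 0.0242, with a fold change between 0.697 and 0.900. *MX1* had 1022 ± 56.8 CPM (SD, n = 3) in Over against 1084 ± 70.2, a log2 fold change of -0.08 (SE 0.08), an adjusted p of 0.593 from the quasi-likelihood test and a fold change between 0.841 and 1.06. So 2 of the 3 genes were called or not according to the test, and *MX1* by neither test. The study lists *OASL* among its differentially expressed genes and measured it by quantitative PCR in the same samples. It describes the result as matching its sequencing, and its text does not name the comparison or direction for *OASL*. Among the pathways it reports as enriched under overexpression are influenza A and herpes simplex infection, and its text does not name the genes in them.

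Of the single libraries, only Over 1 changed a call among the described genes by the quasi-likelihood test when left out. Without Over 1, the quasi-likelihood test gave *OASL* a log2 fold change of -0.84 and an adjusted p of 0.000762, and *RSAD2* one of -0.35 and 0.0233. The number of genes called over the whole table rose from 4 to 1885 in the same step, and it fell to 0 without any other single library. Without any other single library, the adjusted p of both genes from that test lay between 0.179 and 0.471. The log2 fold change of *OASL* was smallest in size without Over 2, at -0.45.

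The effects in the 2 comparisons were set against each other in one fit of 11 libraries, as the change in Over minus the change in Inter 1 and 2. The difference on the log2 scale was -0.27 for *MX1* (SE 0.15), -0.49 for *RSAD2* (SE 0.14) and -0.47 for *OASL* (SE 0.25). Adjusted p-values of the quasi-likelihood test were 0.511, 0.137 and 0.471, so none of the 3 was called, where 0.32% of 15303 genes were. The likelihood ratio test, which called 1.8% of the genes, gave *RSAD2* an adjusted p of 0.0534. DESeq2, which called 1.21%, called the difference for *RSAD2* with an adjusted p of 0.0363, and so did the quasi-likelihood test without the low-count filter, with 0.0224, where it called 0.642% of 21961 genes. The call for *RSAD2* thus depended on the test and the filter, and over the 19 alternatives neither *MX1* nor *OASL* was called.

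**Figure D4:**
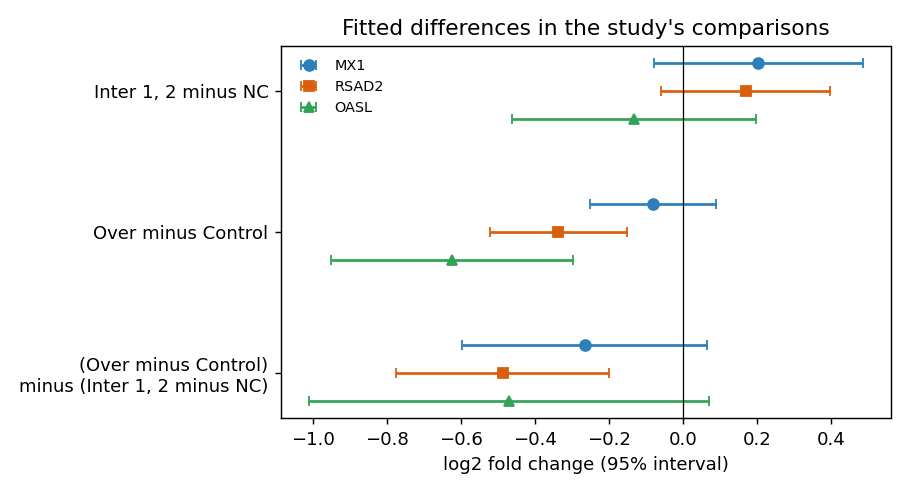
Fitted log2 fold change of *MX1*, *RSAD2* and *OASL* for Inter 1 and 2 minus NC, for Over minus Control, and for the difference between these effects, with bars for the 95% interval of single genes, not adjusted for the number of genes tested. In Over minus Control the intervals of *RSAD2* (-0.34) and *OASL* (-0.62) exclude 0 and that of *MX1* (-0.08) does not, and in Inter 1 and 2 minus NC all 3 intervals include 0. The genes were chosen with their levels known, and after adjustment the quasi-likelihood test called none of the 3.

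The genes did not move in a fixed proportion to each other. The ratio of the counts of 2 genes in one library does not depend on the scaling of libraries, and since its size also depends on transcript lengths, only its change between libraries is read. *RSAD2* to *MX1* was 0.891, 0.758 and 0.818 in NC 1 to 3 and 0.811, 0.778 and 0.893 in Inter 1 to 3. It was 1.77, 1.80 and 1.75 in Control 1 to 3 and 1.62, 1.29 and 1.54 in Over 1 to 3. The siRNA groups shared one range, Control was nearly constant with an SD of 0.0236 around 1.77, and every Over library lay between the siRNA libraries and Control.

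*OASL* to *MX1* was 2.63, 2.50 and 1.72 in NC 1 to 3 and 1.65, 1.91 and 3.06 in Inter 1 to 3. It was 5.19, 5.94 and 5.20 in Control 1 to 3 and 5.10, 2.71 and 3.49 in Over 1 to 3. Over 2 thus fell among the siRNA libraries in this ratio, although its *MX1* level was that of the other vector libraries, and Over 1 was close to Control. *OASL* to *RSAD2* overlapped between all groups, with the narrowest spread in Control and a mean of 2.78 ± 0.616 in NC, 2.64 ± 0.713 in Inter, 3.07 ± 0.201 in Control and 2.50 ± 0.561 in Over (SD, n = 3 each).

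**Figure D5:**
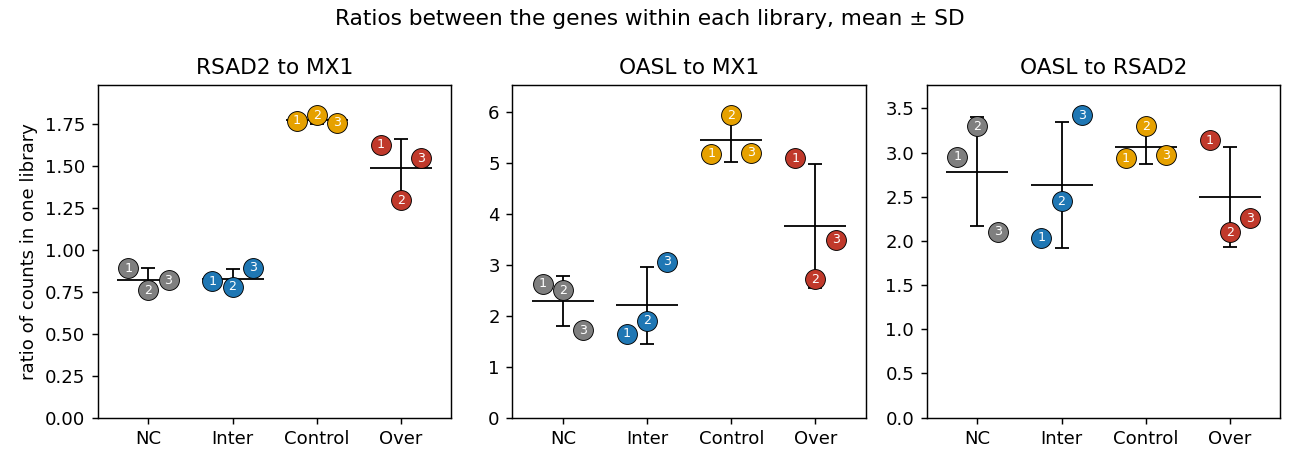
Ratio of the read counts of 2 genes within each library, for *RSAD2* to *MX1*, *OASL* to *MX1* and *OASL* to *RSAD2*, with points numbered by replicate and bars for the mean ± SD of 3 libraries. *RSAD2* to *MX1* separates the siRNA libraries (0.758 to 0.893) from the vector libraries (1.29 to 1.80), and *OASL* to *RSAD2* does not separate the groups.

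Within the 6 siRNA libraries, *MX1* and *RSAD2* varied together, with a Pearson correlation of their log2 CPM of 0.97. *OASL* did not follow them there, with a correlation of -0.07 with *MX1* and -0.19 with *RSAD2*. Within the 6 vector libraries it was *RSAD2* and *OASL* that varied together (0.89), against 0.55 for *MX1* and *RSAD2* and 0.15 for *MX1* and *OASL*. These values describe 6 libraries each, which share the difference between their 2 groups and the scaling of each library, and no p was computed. With the mean of each group subtracted over the 12 libraries, the correlation was 0.81 for *MX1* and *RSAD2*. It was then 0.12 for *RSAD2* and *OASL* and -0.17 for *MX1* and *OASL*. These values pool the siRNA and vector libraries, so they do not show whether the 0.89 held within Control and Over.

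The genes whose log2 CPM was most like the mean pattern of the 3 over the 12 libraries were sought among 15013 genes. The highest correlation was 0.9997, for ENSGALG00000042001, and 2313 of the other genes reached 0.95 or more. After the mean of each group was subtracted, which leaves the variation within groups, ENSGALG00000042001 again had the highest correlation (0.946), followed by ENSGALG00000028982 (0.944). ENSGALG00000042001 had 60.1, 73.4 and 65.5 CPM in NC 1 to 3 and 71.3, 70.5 and 62.0 CPM in Inter 1 to 3. It had 643, 624 and 679 CPM in Control 1 to 3 and 599, 549 and 587 CPM in Over 1 to 3. Like *MX1* and *RSAD2* it was lowest in NC 1 and Inter 3 among the siRNA libraries. It was picked for its likeness to the members, so nothing is read from this match. ENSGALG00000028982 differed more between the control groups, with a log2 fold change of NC against Control of -4.92 (SE 0.14) against -3.28 (SE 0.09) for ENSGALG00000042001.

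In the order of mean levels, with Inter 3 included, NC and Inter came lowest and did not differ beyond their spread in any of the 3 genes. With Inter 1 and 2 alone, *RSAD2* lay above all NC libraries, and the quasi-likelihood test with groups only called none of the 3. Control came highest in each, with Over next below it. For *MX1* this last step was smaller than the SD of Control and slightly larger than that of Over, with overlapping libraries. For *RSAD2* and *OASL* the libraries did not overlap and the step was larger than the SD of either group, while its call depended on the test.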

How the data were processed

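RNA was sequenced from 12 libraries of transfected CEFs. The authors aligned cleaned read pairs to galGal5 with TopHat2 2.0.12 with an index from Bowtie2 2.2.3, and HTSeq 0.6.1 then gave read counts per gene. The deposited values are raw counts per Ensembl gene ID, not normalized. No source used here gives the annotation version, strand setting or counting mode, and reads of overlapping or near-identical genes may have been split or lost. All 12 columns belonged to this series (0 others), and 0 lines named no gene.

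Libraries were grouped by their titles. R 4.3.3 was used with edgeR 4.0.16 (TMM factors, filterByExpr with a minimum count of 10 and total of 15, glmQLFit and glmQLFTest, Benjamini-Hochberg at 0.05 over all genes tested) and DESeq2 1.42.0. Only the groups compared were fitted. SEs and intervals were derived from the estimate and its test. Log2 CPM used a prior count of 2. The fits were tested on simulated data.

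The genes and the comparisons were chosen with earlier results of these data known. Genes named were the 3 members and those most correlated with their mean pattern, of which at most 2 IDs without symbols are printed. Symbols of the members come from that choice of genes: all 5 symbols are in the RefSeq gene table (GRCg7b), which holds none of the Ensembl IDs. Alternatives were other tests, scalings, filters and libraries, and the replicate number as a block. Sequences and the interferon pathway and cell type lists were not analysed here.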

Additional observations from a re-analysis of the deposited data

How the results depend on the processing

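*MX1*, *RSAD2* and *OASL* kept the direction of their log2 fold change under all alternatives in NC against Control and Inter against Over (14 each), in Over against Control (14) and in the difference between the effects (19). In the knockdown (16 alternatives) 1 direction turned, that of *OASL* without NC 2 (0.083), and without NC 3 *OASL* had -0.26. In Over against Control *OASL* and *RSAD2* were called under 4 alternatives: the likelihood ratio test, DESeq2, no low-count filter and without Over 1. The difference between the effects was called for *RSAD2* by DESeq2 (adjusted p = 0.0363) and with no low-count filter.

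The number of genes called moved far more. In the knockdown (32 by the quasi-likelihood test) it was 341 with the likelihood ratio test, 161 with DESeq2, 11 with library totals only, 834 with no low-count filter and 1350 for Inter 1 and 2 against NC 1 and 2. The quasi-likelihood test called 0 with all 12 libraries in one fit (819 genes at an unadjusted p under 0.05), 0 with Inter 3 included (700) and 0 for Inter 1 to 3 against NC 1 and 2 (882). Leaving out 1 library gave between 0 and 1350. In Over against Control (4) it was 414 with the likelihood ratio test, 297 with DESeq2, 10 with library totals only, 316 with no low-count filter and 1 with all 12 libraries in one fit. Leaving out 1 library gave between 0 and 1885. For the difference between the effects (49) it was 276, 185 and 141 with the likelihood ratio test, DESeq2 and no low-count filter, and 23 with DESeq2 size factors in edgeR. It was 0 with Inter 3 included (1607 at an unadjusted p under 0.05), and between 0 and 331 without 1 library. The cause was not tested. A lone Inter library took its spread from the other groups.

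With the replicate number as a block, 2242 genes were called in the knockdown, among them *MX1* (adjusted p = 0.0155) and *OASL* (0.000886) by edgeR's quasi-likelihood test, with 1 residual degree of freedom, and 9 genes in Over against Control. The study does not say that the numbers pair the libraries. The deviations of same-numbered libraries from their group means correlated at -0.13, 0.06 and -0.29 in the knockdown and at -0.10, -0.13 and 0.04 in the overexpression. With so few libraries per group, these correlations cannot show whether same-numbered libraries share an effect.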
